A study of Mus musculus with 8 samples.

Results

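The miR-200 family was followed through 8 of its mature miRNAs in mouse embryonic stem cells that carried or lacked the small RNA binding protein AGO2. The members were taken by name: mmu-miR-200a-3p, mmu-miR-200a-5p, mmu-miR-200b-3p, mmu-miR-200b-5p, mmu-miR-200c-3p, mmu-miR-141-3p, mmu-miR-141-5p and mmu-miR-429-3p, written without the species prefix from here on. They are 8 of the 1915 mature miRNAs in the deposited count table, and all 8 passed the filter on low counts that kept 475 for testing. They were chosen by family name, with no threshold on a measured difference.

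The series holds 8 small RNA libraries in 4 groups of 2, all made from total RNA of E14 embryonic stem cells of 129/Ola background grown on gelatine in serum with LIF. The first group is wild-type E14 (libraries A and B), and the second is Ago2 knockout, with knockout lines 1 and 2 as its libraries. The other groups come from a single line, made from knockout line 1, that carries doxycycline-inducible AGO1 and was kept in puromycin. That line was sequenced without doxycycline (uninduced A and B) and with 1 µg/mL doxycycline (induced A and B). All groups but the wild type thus lack Ago2, and all 4 libraries of the AGO1 line share 1 derivation. An effect of that line, of its puromycin and of its transgene therefore cannot be told apart where it is compared with wild type or with the knockout. Doxycycline was given only to the induced libraries of that line. An effect of the drug and of AGO1 induction therefore cannot be told apart in any comparison with them. Only the knockout group pairs separate lines, and nothing in the labels tells if an A and B pair came from separate cultures, so the spread between them may be technical.

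A miRNA is cut from a hairpin precursor and acts from within an Argonaute protein, where the bases at its 5′ end, the seed, choose the messenger RNAs it represses. AGO2 and AGO1 are sister Argonautes, and only AGO2 of this pair is well known as a slicer of paired RNA. The miR-200 family is best known for holding cells in an epithelial state by repressing the transcription factors Zeb1 and Zeb2, which repress E-cadherin. Embryonic stem cells are themselves epithelial-like, and the family is associated with the gain of that state during reprogramming to pluripotency.

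The members are shown by sequence because their seeds divide them into the sets used below. Each mature sequence is from RefSeq (build GRCm38.p6, all 8 members matched), is written 5′ to 3′, and has its seed, bases 2 to 8, in capitals. The 3p members fall into a set of 3 with the seed AAUACUG and a set of 2 with AACACUG. Of the 5p members, 2 share AUCUUAC, and miR-141-5p has AUCUUCC.
miR-200b-3p: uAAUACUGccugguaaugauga
miR-200c-3p: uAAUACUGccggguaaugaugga
miR-429-3p: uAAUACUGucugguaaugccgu
miR-200a-3p: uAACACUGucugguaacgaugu
miR-141-3p: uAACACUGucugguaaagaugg
miR-200a-5p: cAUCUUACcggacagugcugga
miR-200b-5p: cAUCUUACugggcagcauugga
miR-141-5p: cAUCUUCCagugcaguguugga
Counted from the 5′ end, miR-200b-3p and miR-200a-3p differ within the seed by U4C. Within the first set, miR-200b-3p and miR-200c-3p differ at 2 of 22 compared bases, U11G and A22G. Within the second, miR-200a-3p and miR-141-3p differ at C17A and U22G. How reads matching several miRNAs were assigned is not given in the sources used here, so the split of reads between such close members is uncertain. Among the 1679 mature mouse miRNAs with a RefSeq sequence, no other carried any of these seeds.

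The 5 hairpins lie at 2 loci, both on the minus strand of mm10 (GRCm38). Mir429, Mir200a and Mir200b stand within 1846 bases at chr4:156053905-156055750. All 3 are inside introns of the protein-coding gene Ttll10, and Mir429 also overlaps an exon of the noncoding gene Gm13648. Mir141 and Mir200c stand within 477 bases at chr6:124717914-124718390, in introns of the antisense gene Gm15884, and Mir141 also overlaps an exon of Gm29008. Each locus therefore holds hairpins of both 3p seeds.

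Library totals ran from 163467 counts in knockout line 2 to 1326638 in induced A. The shallowest libraries were knockout line 2 and, with 292895 counts, uninduced B. In CPM (reads scaled to a common library size, here with TMM factors), 3 counts corresponded to between 2.57 and 15.1 CPM across the libraries. Within groups, Spearman's correlation over miRNAs was lowest between the knockout lines (0.902) and between 0.973 and 0.985 elsewhere. Of 9 listed embryonic stem cell miRNAs, 8 were counted, and they summed to 179835 to 242052 CPM in the 8 libraries. The sum was mostly miR-295-3p (148457 counts in wild type A), so it does not show that each listed miRNA was steady. miR-302d-3p had 26 counts of 949620 in wild type A, 91 of 359099 in knockout line 1 and 159 of 736895 in uninduced A. For miR-291a-3p these libraries gave 3223, 768 and 1327 counts. Relative to the totals, miR-302d-3p was thus lowest and miR-291a-3p highest in wild type A among these libraries. Small RNA counts do not measure Ago2 or AGO1 messenger RNA, so neither the knockout nor the induction of AGO1 could be checked here.

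The family as a whole made up a similar share of all counts in wild type and in the knockout, and a smaller share in the AGO1 line with or without doxycycline. Its 8 members took 0.130% of counts in wild type A (exact binomial 95% interval 0.123 to 0.138) and 0.131% in wild type B (0.124 to 0.138). Knockout line 1 gave 0.133% (0.121 to 0.145) and knockout line 2 0.117% (0.101 to 0.135). Intervals of these 4 libraries overlapped one another.

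In the line derived from knockout line 1, the uninduced libraries gave 0.0615% (0.0559 to 0.0674) and 0.0597% (0.0512 to 0.0693). The induced libraries gave 0.0554% (0.0515 to 0.0596) and 0.0548% (0.0505 to 0.0593). None of these 4 intervals reached those of wild type or the knockout, although the intervals cover counting error only. Summed as normalised CPM, the family stood at 1391 ± 106 in wild type, 1074 ± 160 in the knockout, 591 ± 17.2 uninduced and 619 ± 13.3 induced (SD, n = 2 each). On this scale, unlike in shares of counts, both knockout lines (1187 and 961 CPM) lay below both wild-type libraries (1465 and 1316 CPM). An exact permutation test of 2 libraries against 2 cannot go below p = 0.333, so these sums carry no test.

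**Figure D1:**
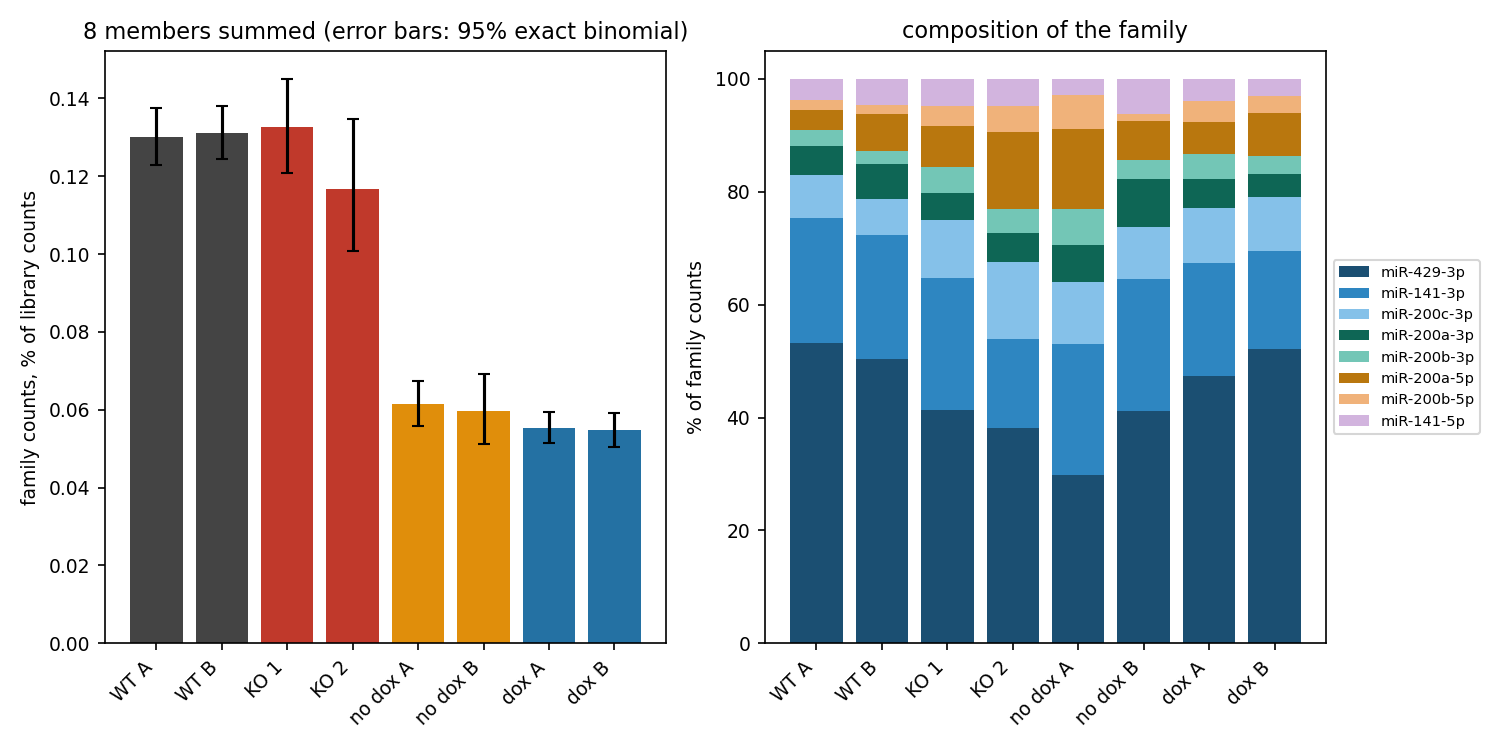
Share of all miRNA counts taken by the 8 miR-200 family members summed (left, bars, percent, with exact binomial 95% intervals) and the share of each member in the family's counts (right, stacked, percent) in each of the 8 libraries. The wild-type and knockout libraries lie between 0.117% and 0.133%, and the 4 libraries of the AGO1 line between 0.0548% and 0.0615%.

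Among the members with the seed AAUACUG, miR-429-3p was the most abundant of the whole family in 8 of 8 libraries and ranked 118 of the 475 tested miRNAs by mean CPM. It was counted at 781 and 664 CPM in the wild-type libraries, at 491 and 367 CPM in lines 1 and 2 of the knockout, at 180 and 238 CPM uninduced, and at 298 and 318 CPM induced. The 4 groups did not overlap and ran in the order wild type, knockout, induced, uninduced. miR-200c-3p, from the other locus, ranked 3 or 4 in the family, with 112 and 84.6 CPM in wild type, 122 and 131 CPM in the knockout, 66.6 and 52.9 CPM uninduced, and 61.6 and 58.8 CPM induced. Its knockout libraries were the highest, and the uninduced and induced libraries overlapped at the low end. miR-200b-3p was lower, with 40.3 and 30.6 CPM in wild type, 54.9 and 40.2 CPM in the knockout, 38.6 and 19.8 CPM uninduced, and 27.4 and 18.9 CPM induced. Wild type and knockout overlapped, as did wild type with uninduced and uninduced with induced, while both knockout lines lay above all 4 libraries of the AGO1 line.

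Among the members with the seed AACACUG, miR-141-3p ranked 2 in the family in 8 of 8 libraries. It stood at 323 and 289 CPM in wild type, 277 and 151 CPM in the knockout (lines 1 and 2), 140 and 136 CPM uninduced, and 126 and 106 CPM induced. Wild type was highest and induced lowest without overlap, and the knockout lines lay far apart, line 1 near wild type and line 2 near the uninduced libraries. miR-200a-3p, its seed partner from the miR-429 locus, had the same order of groups: 77.1 and 80.1 CPM in wild type, 57.4 and 50.3 CPM in the knockout, 39.9 and 49.6 CPM uninduced, and 32.5 and 24.9 CPM induced. No pair of groups overlapped for miR-200a-3p, although knockout line 2 and uninduced B were only 50.3 against 49.6 CPM.

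Among the 5p members, miR-141-5p was below its 3p partner in every library, whereas miR-200a-5p exceeded its partner in several libraries. miR-200b-5p exceeded its partner in knockout line 2, though by 9 against 8 counts. miR-200a-5p was counted at 51.0 and 87.3 CPM in wild type, 84.8 and 131 CPM in the knockout, 85.2 and 39.7 CPM uninduced, and 35.9 and 46.8 CPM induced. Its libraries spread widely within 3 of the 4 groups. miR-200b-5p stood at 27.3 and 20.7 CPM in wild type, 42.4 and 45.3 CPM in the knockout, 35.9 and 6.61 CPM uninduced, and 23.1 and 18.9 CPM induced. The value of 6.61 CPM in uninduced B rests on 2 counts, below the 3 counts taken as the floor. miR-141-5p stood at 54.6 and 60.3 CPM in wild type, 57.4 and 45.3 CPM in the knockout, 17.3 and 36.4 CPM uninduced, and 24.8 and 17.9 CPM induced. Every library of the AGO1 line was below every wild-type and knockout library for this strand. The passenger strands miR-200c-5p and miR-429-5p, which are no members, had at most 4 and 2 counts in any library.

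**Figure D2:**
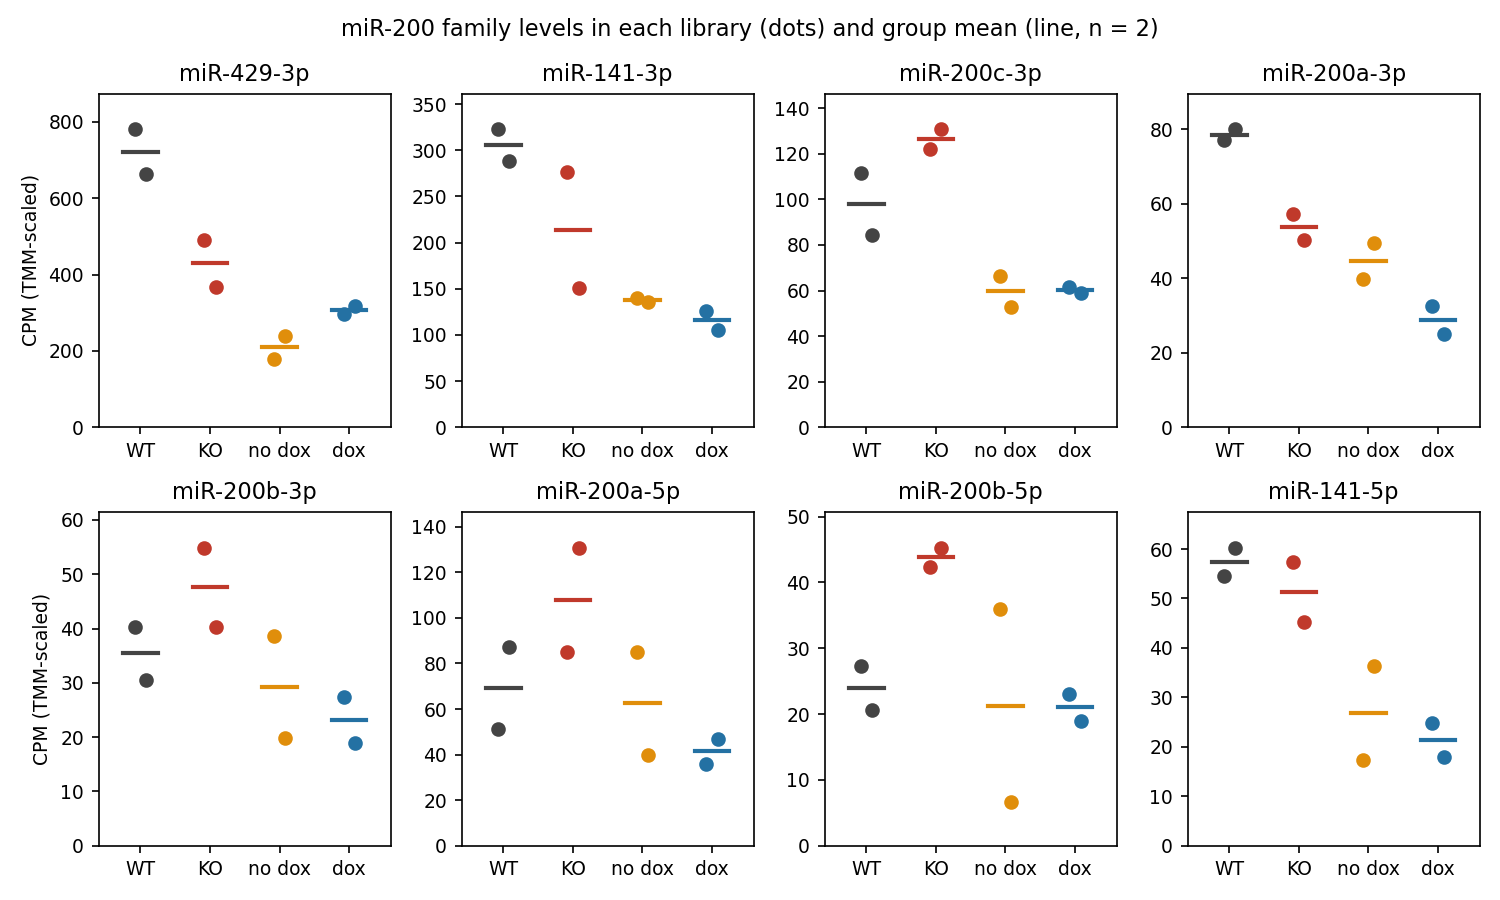
Normalised level (y axis, CPM from 0, scaled to each panel) of each miR-200 family member, 1 panel per member, in the 4 groups. Points are single libraries and horizontal lines are group means (n = 2); miR-429-3p runs from 781 CPM in wild type A to 180 CPM in uninduced A, whereas the induced and uninduced libraries of miR-200c-3p overlap.

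Loss of Ago2 was addressed by comparing the knockout with wild type. miR-429-3p fell by 0.74 on the log2 scale in the knockout (SE 0.24, 95% interval -1.27 to -0.21, lower in 2 of 2 lines), with 722 ± 82.7 CPM in wild type and 429.3 ± 87.8 CPM in the knockout (SD, n = 2), and had an adjusted p of 0.0235 (edgeR quasi-likelihood test, Benjamini-Hochberg over 475 miRNAs). It was the only member called, 1 of 8 at an adjusted p under 0.05, whereas 57.7% of all tested miRNAs were called in this comparison, 32.2% lower and 25.5% higher. Its call did not hold when wild type A was left out (-0.44, adjusted p = 0.258), or knockout line 2 (-0.52, adjusted p = 0.0917), with the same edgeR test. It was also lost without any 1 of the 4 AGO1-line libraries, which share the estimate of spread (-0.58 to -0.69, edgeR adjusted p = 0.0526 to 0.104). With only wild type and knockout fitted its edgeR adjusted p was 0.0780. Scaled by library totals alone, no member was called (miR-429-3p -0.44, edgeR adjusted p = 0.101), and calls over all miRNAs turned from 121 higher and 153 lower to 155 higher and 111 lower.

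The other members had differences in both directions, none past the test with all libraries in the fit. miR-200a-3p and miR-141-3p, which share a seed but not a locus, had log2 differences of -0.53 (SE 0.33, interval -1.27 to 0.21) and -0.48 (SE 0.30, interval -1.15 to 0.19). For both, the knockout libraries lay below the wild-type ones. miR-141-3p depended on the knockout line: without line 1 it was -1.01 and called (edgeR adjusted p = 0.0164), and without line 2 it was -0.11 (edgeR adjusted p = 0.769). miR-200b-5p had a difference of 0.87 (SE 0.55, interval -0.34 to 2.08) and miR-200c-3p of 0.37 (SE 0.30, interval -0.29 to 1.02), with the knockout libraries above wild type for both. Groups were thus apart for 5 of 8 members, 3 lower and 2 higher, where 42.9% of all tested miRNAs were apart and lower and 34.3% apart and higher. miR-200a-5p (0.59, SE 0.43), miR-200b-3p (0.48, SE 0.43) and miR-141-5p (-0.13, SE 0.40) overlapped between the groups. The median log2 difference was 0.12 over the 8 members and -0.12 over all 475 tested miRNAs. Scaled by library totals alone, these medians moved to 0.42 and 0.16, and miR-141-5p then had a difference of 0.15. Without knockout line 1 the medians were -0.07 and -0.31.

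AGO1 induction, together with the doxycycline that drives it, was addressed within the AGO1 line by comparing induced with uninduced libraries. None of the 8 members was called by edgeR (adjusted p 0.104 to 0.975), where 28.8% of all tested miRNAs were (21.1% higher and 7.79% lower). At an unadjusted p under 0.05 there was 1 member, where 40% of all tested miRNAs passed. That member was miR-429-3p, at 308 ± 14.3 CPM induced and 209 ± 41.3 CPM uninduced (SD, n = 2), a log2 difference of 0.57 (SE 0.24, interval 0.04 to 1.11, adjusted p = 0.104 by edgeR). It was higher in 2 of 2 induced libraries. With only the uninduced and induced libraries in the fit, its edgeR adjusted p was 0.0340, and without knockout line 1 or 2 it was 0.0231 or 0.0264. miR-200a-3p went the other way, from 44.8 ± 6.83 to 28.7 ± 5.37 CPM, a difference of -0.60 (SE 0.34, interval -1.35 to 0.15). miR-141-3p differed by -0.25 (SE 0.31, interval -0.93 to 0.43), also with both induced libraries below both uninduced ones. Groups were apart for these 3 members, 1 higher and 2 lower, where 38.3% of tested miRNAs were apart and higher and 34.1% apart and lower.

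For miR-200c-3p the difference was -0.02 with an interval of -0.69 to 0.66, so the data neither show a change nor exclude one within that interval. The remaining 4 members had differences of -0.68 (miR-200a-5p, SE 0.43), -0.44 (miR-200b-3p, SE 0.43), -0.26 (miR-200b-5p, SE 0.53) and -0.17 (miR-141-5p, SE 0.45). In each of these the groups overlapped, and uninduced A was higher than uninduced B by more than the induced libraries differed, apart from miR-141-5p, where uninduced B was higher. The median difference over the 8 members was -0.26, against 0.03 over all tested miRNAs. It rests on the uninduced libraries: without uninduced A it was 0.25 beside 0.26 over all, and without uninduced B -0.53 beside -0.14. Without induced B it was -0.11 beside 0.04. Scaled by library totals alone, calls over all miRNAs numbered 83 higher and 64 lower, against 100 and 37 with TMM factors.

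**Figure D3:**
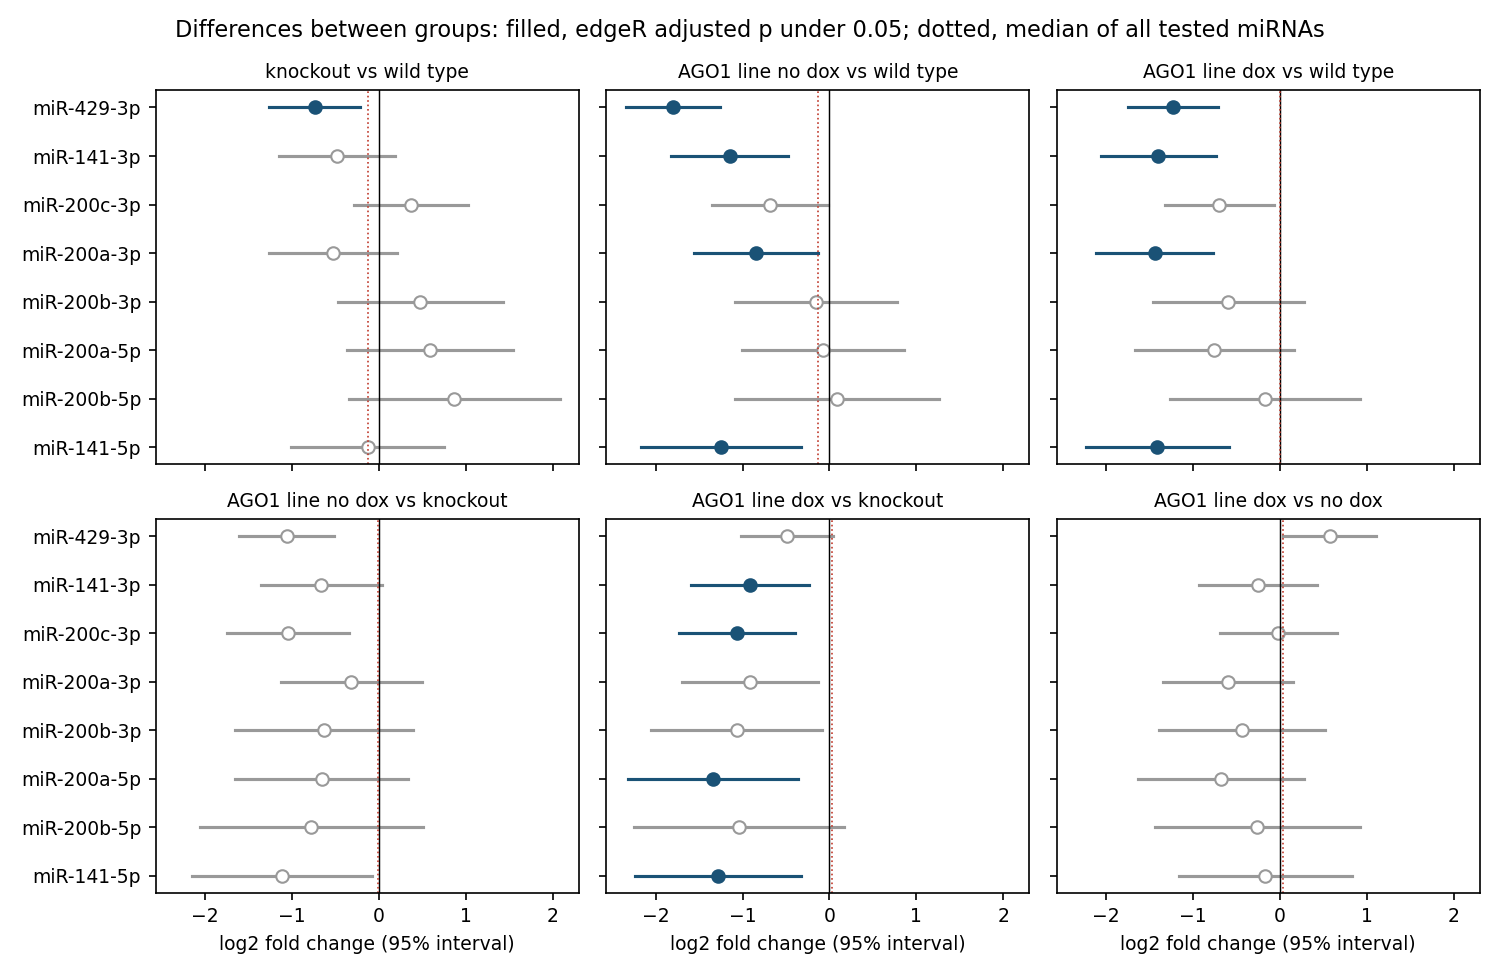
Log2 differences (x axis) of the 8 miR-200 family members (y axis) in each of the 6 comparisons, 1 panel each, from the edgeR fit over all libraries. Points are estimates, bars 95% intervals, filled points have an adjusted p under 0.05 and the dotted line is the median of all tested miRNAs; miR-429-3p was lower in the knockout by 0.74 and had a difference of 0.57 between induced and uninduced libraries, and 4 members were called lower in the induced libraries than in wild type.

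The uninduced AGO1 line was then set against the wild type and, separately, the knockout it came from. Against wild type, 4 of 8 members fell and none rose, where 59.2% of tested miRNAs were called (33.3% lower and 25.9% higher). miR-429-3p fell by 1.80 on the log2 scale (SE 0.25, interval -2.35 to -1.26, edgeR adjusted p = 0.000173), a 3.49-fold difference that kept its call whichever library was left out. miR-141-3p fell by 1.15 (SE 0.30, edgeR adjusted p = 0.00866) and its partner strand miR-141-5p by 1.25 (SE 0.42, edgeR adjusted p = 0.0246). miR-200a-3p fell by 0.84 (SE 0.32, edgeR adjusted p = 0.0422), a call that was kept in 2 of the 8 fits that each leave out 1 library, those without a knockout line (edgeR adjusted p = 0.11 to 0.241 in the others, differences -0.72 to -0.83). The call for miR-141-3p was lost without wild type A, uninduced A or uninduced B (edgeR adjusted p = 0.0743, 0.0523 and 0.103). For miR-141-5p it was lost without uninduced A (-0.74, edgeR adjusted p = 0.292), and without wild type A, wild type B, induced A or induced B (edgeR adjusted p = 0.086, 0.0885, 0.063 and 0.0658). miR-200c-3p, at 59.7 ± 9.65 against 98.0 ± 19.1 CPM, did not pass (-0.68, SE 0.30, edgeR adjusted p = 0.0730). These 5 members had groups that did not overlap, all lower, as had 44.4% of all tested miRNAs. miR-200a-5p, miR-200b-3p and miR-200b-5p had differences between -0.16 and 0.09, each with an SE of at least 0.42. DESeq2 called 2 of the 8 members, miR-429-3p and miR-141-3p, both lower, where it called 241 of all 475 tested miRNAs, 133 of them lower. The medians were -0.76 for the members and -0.14 for all tested miRNAs.

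Against the knockout, the uninduced line gave no call among the members and none among the 475 miRNAs with edgeR (0% called), although 72 miRNAs (15.2%) had an unadjusted p under 0.05 and DESeq2 called 15. Of the members, 3 of 8 had an unadjusted p under 0.05: miR-429-3p, miR-200c-3p and miR-141-5p. All 8 member differences were negative, from -0.32 for miR-200a-3p to -1.11 for miR-141-5p, and their median of -0.72 stood beside -0.01 for all tested miRNAs. Without uninduced A that median was -1.22 (all miRNAs -0.18), and without uninduced B -0.39 (all miRNAs 0.11). Over the fits that each leave out 1 library, miR-200b-5p ran from -2.85 to -0.12 and miR-200a-5p from -1.55 to -0.13. In 7 of 8 members both uninduced libraries lay below both knockout lines, a pattern seen in 22.5% of all tested miRNAs. The exception was miR-200a-5p. For miR-200a-3p (50.3 against 49.6 CPM) and miR-200b-3p (40.2 against 38.6 CPM), knockout line 2 cleared the higher uninduced library by less than 1 count. In that line 1 count is 5.03 CPM, so these separations are within counting error. miR-429-3p had a difference of -1.06 (SE 0.25, interval -1.61 to -0.51, edgeR adjusted p = 0.134) and miR-200c-3p of -1.05 (SE 0.32, interval -1.75 to -0.34, edgeR adjusted p = 0.206). DESeq2 gave miR-429-3p an adjusted p of 0.00417, and edgeR one of 0.0485 without knockout line 1 and 0.000117 without knockout line 2, when miR-141-3p was also called (-1.03, edgeR adjusted p = 0.021). With knockout line 2 and uninduced B left out, a choice made after seeing the data, uninduced A was compared with knockout line 1, the parent line. The difference in miR-429-3p was then -1.48 (edgeR adjusted p = 0.00017), where each lone library is assumed to vary like the groups that keep 2.

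The induced line was also compared with both groups. It shares its wild-type and knockout libraries with the comparisons above, so the following values are set beside those and are not independent of them. Against wild type, 4 of 8 members fell and none rose, where 38.9% of tested miRNAs were called (19.8% lower and 19.2% higher). miR-200a-3p fell by 1.44 (SE 0.30, edgeR adjusted p = 0.00483), miR-141-5p by 1.41 (SE 0.37, edgeR adjusted p = 0.0138), miR-141-3p by 1.40 (SE 0.30, edgeR adjusted p = 0.00488) and miR-429-3p by 1.23 (SE 0.23, edgeR adjusted p = 0.00308). These are 2.72-, 2.66-, 2.64- and 2.35-fold differences in members of both loci and both 3p seeds. All 4 calls were lost without induced B (edgeR adjusted p = 0.107 for miR-200a-3p, 0.0887 for miR-141-3p, 0.0521 for miR-429-3p and 0.177 for miR-141-5p). Without wild type A, miR-141-3p (0.0571), miR-429-3p (0.0521) and miR-141-5p (0.0717) were lost by adjusted p in the edgeR test. Without induced A the lost calls were miR-429-3p (0.0630) and miR-141-5p (0.0759), and without wild type B miR-141-5p (0.0721), again as edgeR adjusted p. In 7 of 8 members, the exception being miR-200b-5p, both induced libraries were below both wild-type ones, as in 36% of all tested miRNAs. Members had a median of -0.99 and all tested miRNAs 0.01.

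Against the knockout, the induced libraries were lower for every member without overlap between groups, 8 of 8, a pattern seen in 30.5% of all tested miRNAs. Called lower were 4 of 8 members and higher none, where 29.9% of tested miRNAs were called (10.7% lower and 19.2% higher). Scaled by library totals alone, 7 of 8 members were called lower, and calls over all miRNAs turned from 91 higher and 51 lower to 72 higher and 117 lower. With no filter on low counts 1 of 8 members was called lower, where 157 of 1014 miRNAs were called, 52 of them lower. With only the groups compared in the fit 1 of 8 was also called lower, where 108 of 425 miRNAs were called, 38 of them lower. With TMM factors the called members were miR-200a-5p (fell by 1.34, SE 0.44, edgeR adjusted p = 0.0432), miR-141-5p (fell by 1.28, SE 0.43, edgeR adjusted p = 0.0451), miR-200c-3p (fell by 1.06, SE 0.30, edgeR adjusted p = 0.0241) and miR-141-3p (fell by 0.92, SE 0.31, edgeR adjusted p = 0.0454). Without induced A or induced B all 4 calls were lost (edgeR adjusted p = 0.104 to 0.223). Without knockout line 1, miR-141-3p had a difference of -0.35 (edgeR adjusted p = 0.489) and miR-141-5p of -1.04 (edgeR adjusted p = 0.222). Both also lost their call without wild type A (edgeR adjusted p = 0.0673 for both) or wild type B (0.0722 and 0.0684), as did miR-200a-5p without wild type A (0.0501). The call for miR-141-3p was lost too without uninduced A or B (edgeR adjusted p = 0.0712 and 0.079). miR-429-3p had the smallest difference of the family here, -0.49 (SE 0.24, interval -1.02 to 0.04, edgeR adjusted p = 0.144), and miR-200a-3p had -0.92 (SE 0.35, edgeR adjusted p = 0.0730). Medians were -1.05 for the members and 0.03 for all tested miRNAs, and the latter moved to -0.37 under library totals alone, with the distance between both medians at -1.08 and -1.06.

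The make-up of the family is given next as shares of its own counts, with no test. miR-429-3p supplied 53.3% and 50.4% in the wild-type libraries, 41.4% and 38.2% in lines 1 and 2 of the knockout, 29.8% and 41.1% uninduced, and 47.3% and 52.1% induced. Both wild-type and both induced libraries were thus above all 4 knockout and uninduced ones. miR-200c-3p had its lowest share in wild type, at 7.02 ± 0.839% for wild type against 12.0 ± 2.35% for the knockout, with 10.1 ± 1.34% uninduced and 9.72 ± 0.110% induced (SD, n = 2). miR-141-3p, the second member, had a share of 18.7% to 23.3% as group means.

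Ratios within a library do not depend on its scaling. For each count of miR-200a-3p there were 10.1 and 8.29 counts of miR-429-3p in the wild-type libraries, and the knockout had 8.57 and 7.30, although the hairpins share the chromosome 4 locus. The ratio was 4.50 and 4.80 uninduced and 9.16 and 12.8 induced. The uninduced libraries were the lowest, below all 6 others. Against miR-200b-3p, also of that locus, miR-429-3p counted 19.4 and 21.7 to 1 in wild type, 8.95 and 9.13 in the knockout, 4.66 and 12.0 uninduced and 10.9 and 16.8 induced. Wild type was the highest in that ratio. The whole chromosome 4 locus supplied 66.8 ± 0.29% of family counts in wild type, 63.8 ± 3.12% in the knockout, 62.0 ± 1.25% uninduced and 68.2 ± 2.71% induced (SD, n = 2). The members with the seed AAUACUG supplied 61.4 ± 3.15%, 56.2 ± 0.20%, 50.5 ± 4.58% and 63.2 ± 2.38% in the same order. The uninduced libraries were thus lowest by both measures as group means.

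Both strands of a hairpin were members for miR-200a, miR-200b and miR-141, so the balance of arms could be compared. The 5p strand of miR-200a held 39.8% and 52.2% of that hairpin's counts in wild type A and B (exact binomial intervals 30.5 to 49.7 and 44.7 to 59.5). It held 59.6% and 72.2% in knockout lines 1 and 2 (45.8 to 72.4 and 54.8 to 85.8). Both knockout lines lay above both wild-type libraries, while uninduced (68.1% and 44.4%) and induced (52.5% and 65.3%) libraries spanned much of that range. The log2 change of the 5p-to-3p ratio between knockout and wild type was 1.07 (SE 0.50, interval 0.03 to 2.11, edgeR adjusted p = 0.116 over 195 hairpins), and it was not called. Arm ratios were called for 28.7% of the 195 hairpins in this comparison.

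For miR-200b the 5p strand held 40.4% in both wild-type libraries and 43.6% and 52.9% in the knockout lines, and the log2 change of the arm ratio was 0.37 (SE 0.59, edgeR adjusted p = 0.686). For miR-141 the 5p strand held 14.5% and 17.3% in the wild-type libraries, against 17.2% and 23.1% in the knockout lines, with a change of 0.30 (SE 0.41, edgeR adjusted p = 0.645). Between induced and uninduced libraries the changes were -0.15 for miR-200a (SE 0.52), 0.18 for miR-200b (SE 0.59) and 0.12 for miR-141 (SE 0.47), none called by edgeR (adjusted p 0.915 to 0.933), where 5.64% of hairpins were. The miR-200c and miR-429 hairpins had too few 5p counts for an arm ratio.

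**Figure D4:**
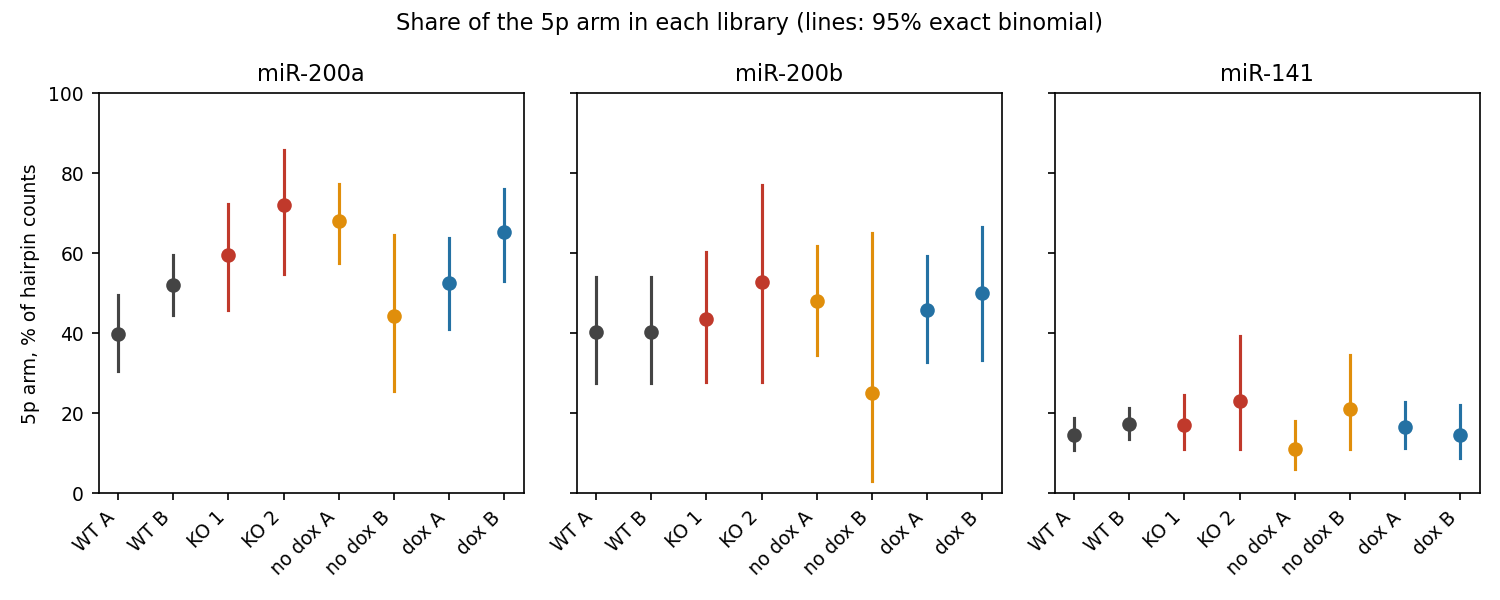
Share of each hairpin's counts that came from its 5p strand (y axis, percent) for miR-200a, miR-200b and miR-141 in the 8 libraries (x axis). Points are libraries and bars exact binomial 95% intervals; miR-200a runs from 39.8% in wild type A to 72.2% in knockout line 2, and miR-141 stays between 11.0% and 23.1%.

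Levels of the members were correlated across the 8 libraries, which share their scaling and fall into 4 groups, so these values are descriptions. Pearson's r of log2(CPM + 1) was 0.904 between miR-200a-3p and miR-141-3p, which have the same seed and different loci. It was 0.849 between miR-429-3p and miR-141-3p and 0.840 between miR-200b-3p and miR-200c-3p, again from different loci. miR-200a-3p and miR-141-5p, which share neither seed nor locus, reached 0.888. The split of reads between the closest members is uncertain, as stated above. Strands of 1 hairpin reached 0.845 (miR-141-3p and miR-141-5p), 0.826 (miR-200b) and 0.381 (miR-200a). The lowest was 0.101, between miR-200a-3p and miR-200b-5p of the same locus. Among the tested miRNAs outside the family, those most like miR-429-3p by this measure were miR-290a-5p (0.982), miR-363-3p (0.952), miR-31-5p (0.949), miR-363-5p (0.942) and miR-340-5p (0.929). miR-290a-5p, of an embryonic stem cell cluster, stood at 879 and 795 CPM in wild type and 278 and 288 CPM uninduced, a span close to that of miR-429-3p.

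Other miRNAs tied to epithelial state were counted beside the family from a list of 14, of which 13 were tested. In the knockout 5 of them rose and 3 fell against wild type, with a median log2 difference of 0.37 (all tested miRNAs -0.12, with 25.5% called higher and 32.2% lower). miR-205-5p, which like the miR-200 family represses Zeb1 and Zeb2, rose by 2.73 (SE 0.50, edgeR adjusted p = 0.00141), and miR-375-3p rose by 2.98 (SE 0.35, edgeR adjusted p = 8.67e-05). miR-183-5p fell by 1.73 (SE 0.18, edgeR adjusted p = 4.61e-05). Calls in that list thus went in both directions. In the induced against the uninduced libraries, 1 of the 13 rose and 3 fell, where 21.1% of all tested miRNAs rose and 7.79% fell. Of 15 miRNAs known for promoting epithelial-mesenchymal transition or from mesenchymal cells, 12 were tested. In the knockout against wild type 0 of these rose and 4 fell, a share of falls near the 32.2% of all tested miRNAs. In the induced against the uninduced libraries 3 rose and 1 fell, beside the same 21.1% and 7.79% over all tested miRNAs. The calls in both comparisons include miR-103-3p and miR-107-3p, which had differences of -3.99 and -3.59 in the knockout and of 2.66 and 2.71 on induction. miR-143-3p, a smooth muscle and fibroblast miRNA, fell by 3.29 in the knockout (SE 0.20, edgeR adjusted p = 8.16e-07) and rose by 2.78 on induction (SE 0.20, edgeR adjusted p = 4.05e-06).

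The sums of marker lists of other cell types also differed between these groups, though not every listed miRNA followed its sum. miR-205-5p and miR-203-3p, both of stratified epithelium, summed to 380 to 393 CPM in wild type, 3862 and 991 CPM in knockout lines 1 and 2, 3092 to 3556 CPM uninduced and 1763 to 2062 CPM induced. Most of it was miR-205-5p, with means of 356 CPM in wild type, 2361 in the knockout, 3293 uninduced and 1892 induced. The means of miR-203-3p were 29.9, 65.2, 30.2 and 20.6 CPM in the same order. The fibroblast list, with counts for 5 of its 6 miRNAs, summed to between 3303 and 3814 CPM in the wild-type libraries, to 543 and 589 CPM in the knockout lines, 562 to 602 CPM uninduced and 2018 to 2225 CPM induced, with its miR-214-3p at 0 in every library. That sum was mostly miR-143-3p, at 3415 CPM on average in wild type and 349 CPM in the knockout. The list's miR-145a-5p (23.1 and 43.8 CPM), miR-10b-5p (88.6 and 132 CPM) and miR-199a-3p (30.0 and 33.7 CPM) had higher means in the knockout, none called. The blood list, with counts for 3 of 5, summed to 1834 to 1881 CPM in wild type and 3710 to 6716 CPM in the other groups, with miR-223-3p and miR-451a at 0. The neural list (3 of 3) summed to 1505 to 1870 CPM in wild type and 747 to 1108 CPM elsewhere. Its miR-9-5p had means of 420 CPM in wild type, 339 in the knockout, 406 uninduced and 296 induced, with no call against wild type. The liver and endoderm list (3 of 4, miR-122-5p at 0) stood at 1935 to 2008 CPM in wild type and 2553 to 2875 CPM elsewhere. Its miR-194-5p went the other way, with means of 159 CPM in wild type, 103 in the knockout, 127 uninduced and 130 induced. That miRNA was not called against wild type. The muscle list (1 of 3, miR-1a-3p and miR-206-3p at 0) stayed at or below 6.61 CPM. The part of other cell types in the family's differences was not tested.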

How the data were processed

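Small RNA was sequenced from 8 mouse embryonic stem cell libraries in 4 groups of 2, from 1 µg of total RNA with a TruSeq small RNA kit, per the labels' protocols. The authors deposited raw read counts per mature miRNA; Bowtie and mm10 are named in the submitters' processing notes. The sources used here give no trimming, mismatch or multiple-match rule and no miRNA release. The deposited counts were fitted once over all 8 libraries with edgeR 4.0.16 (TMM scaling, its expression filter, quasi-likelihood test, Benjamini-Hochberg adjustment over 475 miRNAs, called under 0.05), which leaves 4 residual degrees of freedom. Those 475 hold 99.9% of counts. CPM uses TMM library sizes. SE is the log2 difference over the square root of F. Arm ratios were fitted in edgeR over 195 hairpins with a term per library. DESeq2 1.42.0, other scalings and filters, fewer groups, a replicate block and leaving out each library were the alternatives. The calculations were tested on simulated data. All members are named, with the 5 miRNAs most like the most abundant member. Members and lists were chosen with earlier results of these data known. Exact binomial intervals and floors cover counting error only, and they treat reads as independent molecules, which reads are not. Intervals of log2 differences come from the edgeR fit, which estimates the spread between libraries.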

Additional observations from a re-analysis of the deposited data

How the results depend on the processing

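Of 762 member values under the alternatives, 633 kept their direction and their side of the threshold, 65 lost a call, 27 gained one and 37 changed sign. The cause was not tested. Most of the 762 belong to results not called in the fit over all libraries, where staying uncalled counts as kept. All 65 losses fall on the fewer results called there. These were 1 of 8 members for knockout against wild type, and 4 of 8 each for induced against wild type, uninduced against wild type and induced against knockout. Calls over all miRNAs between uninduced and knockout libraries, 0 as reported, numbered 2 without TMM factors, 15 with DESeq2, 14 with no filter and 25 without knockout line 2 and uninduced B, a choice made after seeing the data. Arm ratio calls between induced and uninduced libraries rose from 11 to 20 with only those groups fitted. Leaving out 1 library at a time gave 57 to 200 calls for induced against uninduced, 75 to 258 for induced against wild type, 0 to 61 for uninduced against knockout, 70 to 174 for induced against knockout and 2 to 22 for that arm ratio. Without TMM factors miR-141-5p (knockout against wild type) came to 0.15 and miR-200a-5p (uninduced against wild type) to 0.026. With no filter miR-200c-3p (induced against uninduced) came to 0.074 and miR-200b-5p (uninduced against wild type) to -0.0041, and with a mean of at least 20 CPM the former came to 0.022. With only the groups compared, miR-141-5p in the knockout came to 0.0047. Without knockout line 2 and uninduced B, miR-141-3p came to 0.045 and miR-141-5p to 0.18 in the knockout, miR-141-5p to 0.34 on induction, miR-200b-5p to 0.021 in induced against wild type, and miR-200a-5p to 0.44 and miR-200b-3p to 0.29 in uninduced against wild type. With 1 library left out, miR-141-5p in the knockout ranged from -0.34 to 0.034. On induction the ranges were -1.21 to 0.18 for miR-200a-5p, -0.88 to 0.36 for miR-200b-3p, -0.92 to 1.78 for miR-200b-5p, -0.30 to 0.32 for miR-200c-3p and -0.62 to 0.16 for miR-141-5p, and for arm ratios -0.59 to 0.82 for miR-200a, -0.038 to 1.42 for miR-200b and -0.53 to 0.58 for miR-141. Against wild type they were -0.38 to 0.20 for miR-200b-5p induced, and uninduced -0.90 to 0.48 for miR-200a-5p, -0.90 to 0.34 for miR-200b-3p and -1.89 to 0.80 for miR-200b-5p.

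When A or B entered the fit as a replicate block, over the 6 lettered libraries, 192 miRNAs were called for induced against uninduced, 250 for induced against wild type and 321 for uninduced against wild type. The same libraries without the block gave 202, 256 and 321. Deviations of A from B correlated between groups at 0.0526, -0.00723 and 0.197, so the letters are not known to pair libraries. The block gave miR-200a-5p 0.0071 and miR-200b-5p -0.031 for uninduced against wild type. Depth limits the members with low counts: in uninduced B, 5 of the 8 had 2 to 15 counts (miR-200b-5p, miR-200b-3p, miR-141-5p, miR-200a-5p and miR-200a-3p). In knockout line 2, miR-200b-3p, miR-200b-5p, miR-141-5p and miR-200a-3p had 8 to 10 counts.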
